A study of Mus musculus with 12 samples.

Results

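The collagen genes of the adult mouse left ventricle were followed across 12 hearts, 4 control and 8 from which the cardiac transcription factor gene Nkx2-5 had been deleted in the trabecular myocardium before birth. A collagen gene was any gene name on the array made of Col, a number, the letter a and a number. By this rule 43 of 34844 gene names on the array were collagen genes, with 68 probes between them, and they fell into 11 fibrillar genes, 6 basement membrane genes of type IV and 26 others.

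Collagens are secreted proteins whose long stretches repeat a triplet of residues that begins with glycine, which lets 3 chains wind into a triple helix. Fibrillar collagens assemble into the cables that give the ventricular wall its tensile strength, and in the heart they are made mainly by fibroblasts. Type IV collagens form the sheet-like network of the basement membranes that surround each cardiomyocyte and line each vessel. The remaining families decorate fibrils, build beaded filaments around cells or span the cell membrane.

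The mice were 6 months old, and RNA came from the left ventricular wall with the apex but without the septum. Mutants carried floxed Nkx2-5-ΔNeo alleles and Cx40-creERT2, a Cre recombinase that is active in cells making connexin 40 and only after tamoxifen. Tamoxifen was given to the pregnant mothers at E10.5 followed by E11.5, while trabeculae form (TrbE10, which the sample labels call Nkx2-5Δtrab), or at E13.5 followed by E14.5, while they compact (TrbE14, labelled Nkx2-5Δcomp). The study's methods call the controls littermates with Nkx2-5-ΔNeo fl/fl and no Cre (Cx40+/+), whereas the labels call them not injected. All pups were delivered by caesarean section and raised by CD1 foster mothers, according to the methods. Deletion reaches only cells of the Cx40 lineage, so each sample holds a mixture of deleted and undeleted cells, and whether hearts of a group shared a litter is not given in the sources used here.

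Each heart was hybridized to 1 one-colour Agilent array. Between 22885 and 26149 probes per array lay well above background, as the scanner's software marks it. Nkx2-5, the deleted gene, had log2 signals of 11.89 to 12.23 in control hearts, 11.21 to 11.67 in TrbE10 hearts and 11.12 to 11.63 in TrbE14 hearts, lower in all 8 mutants than in every control. Whether its probe lies in the deleted part is not given in the sources used here. All 7 cardiomyocyte markers that were listed were measured in every group, as a left ventricle should show. The control and the TrbE14 hearts shared slide 1 and the TrbE10 hearts had slide 2 to themselves, so slide and TrbE10 genotype cannot be told apart. On slide 1 the controls lay in row 1 and the TrbE14 hearts in row 2, so row and TrbE14 genotype cannot be told apart either.

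Of the 43 collagen genes, 27 were measured, that is, had at least 1 probe well above background on 3 of 4 arrays of some group. They comprised 7 fibrillar, all 6 type IV and 14 other genes, with 36 probes. The brightest probe of 24 of them passed in every group. The other 3, Col5a2, Col8a1 and Col8a2, passed only in mutant groups, which favours genes that are higher there. Among the 16 genes that were not measured, 13 had no probe above background on any array, including the cartilage collagens Col2a1 and Col10a1 and the fibril-associated Col12a1. Col11a2, Col25a1 and Col9a1 were above background on at most 3, 3 and 1 of the 12 arrays.

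In both mutants most measured collagen genes read higher than in control hearts, by changes that were mostly under 1 on the log2 scale. In TrbE10 hearts 21 of 27 were higher, with a median log2 change of 0.34, and in TrbE14 hearts 21 of 27 were higher, with a median of 0.43. Over all 18021 genes tested, 45.2% and 44.1% were higher, with medians of -0.02 and -0.03. Few of these changes passed the test, which was limma's moderated test on all 12 arrays with Benjamini-Hochberg adjustment over 24593 probes. The p-values measure the spread between these hearts. A gene was called when 1 of its probes had an adjusted p under 0.05. In TrbE10 hearts 1 collagen gene, Col27a1, was called higher (3.70% of 27, against 1.36% of all genes), and none was called lower (0.788% of all genes, and 2.15% either way). In TrbE14 hearts 3 genes, Col4a1, Col4a4 and Col22a1, were called higher (11.1%, against 0.583% of all genes), and none was called lower (0.178% of all genes, and 0.76% either way). The Col22a1 call came from a probe that passed the filter only through mutant groups, and with only probes measured in every group the calls were 1 in TrbE10 and 2 in TrbE14 hearts. At an unadjusted p under 0.05, 14 collagen genes were higher and 1 was lower in TrbE10 hearts (7.8% and 9% of all genes), and 12 were higher and 2 lower in TrbE14 hearts (6.52% and 7.4% of all genes). All 4 TrbE10 hearts lay above all 4 controls for 8 of 27 collagen genes (4.94% of all genes) and below them for 1 (5.63%), and all 4 TrbE14 hearts lay above for 9 (4.65%) and below for 0 (5.43%). Among the 24 genes measured in every group 18 were higher in each mutant, with medians of 0.32 and 0.41. At an unadjusted p under 0.05, 12 and 11 of them were higher (7.03% and 6.17% of all genes measured in every group) and 1 and 2 lower. Mutant hearts all lay above the controls for 7 and 8 of them (4.65% and 4.66%).

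**Figure D1:**
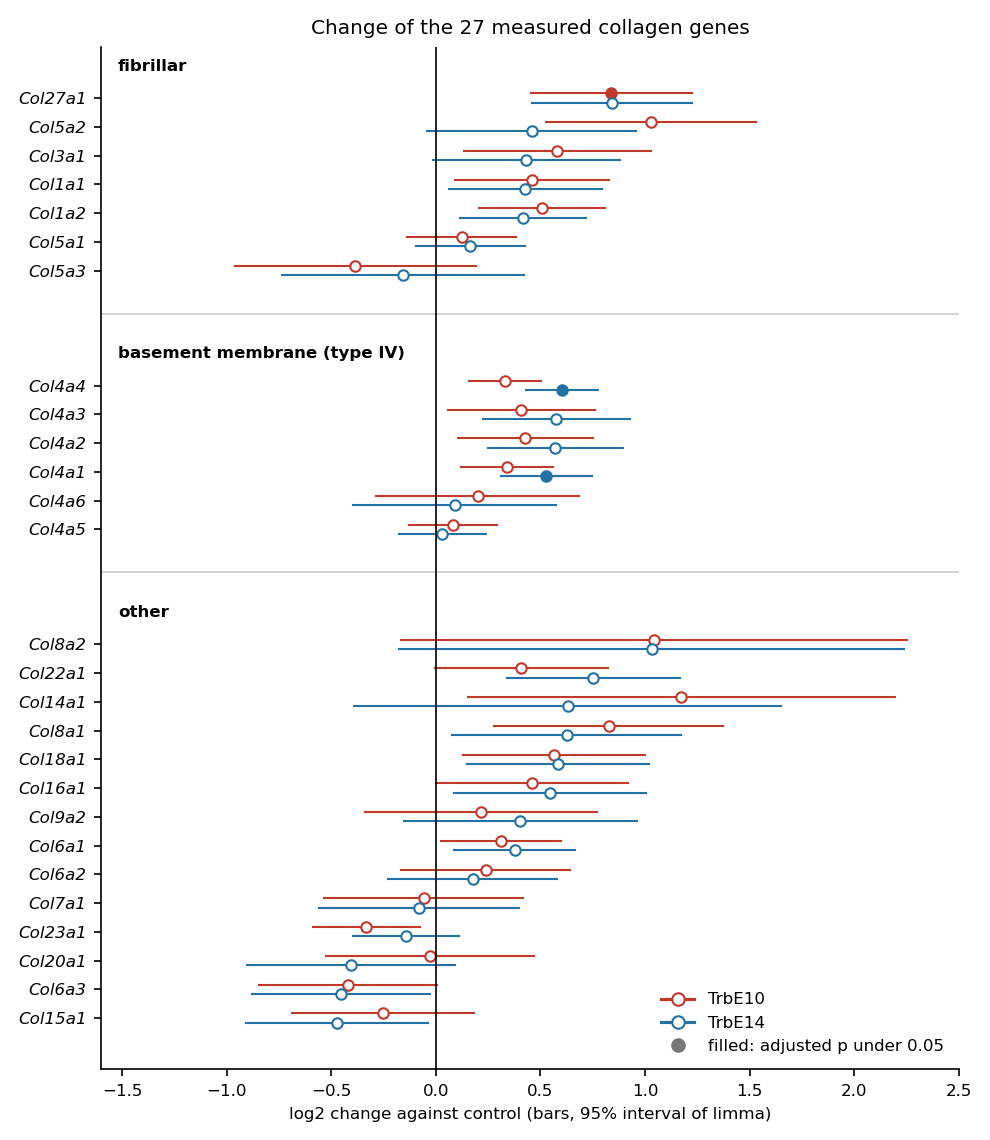
Log2 change against control of the 27 measured collagen genes, grouped into fibrillar, basement membrane and other genes, with TrbE10 in red and TrbE14 in blue. Points are the fitted changes of each gene's brightest probe, bars are 95% intervals from limma, and filled points had an adjusted p under 0.05 at that probe, which holds for Col27a1 in TrbE10 and for Col4a1 and Col4a4 in TrbE14 (Col22a1 was called by its dimmer probe, which is not drawn).

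Type IV collagen had 2 calls, Col4a1 and Col4a4, both in TrbE14 hearts (33.3% of 6, against 0.583% of all genes). The Col4a1 call stood in only 6 of 22 alternative settings. Of these 6, the settings on other probes of a gene and on probes measured in every group reuse the reported fit, so the call was bound to stand there. All 6 chains read higher in both mutants at their brightest probe in the reported fit. In TrbE14 hearts Col4a5 turned with normexp background correction and without control replicate 2, and Col4a6 turned without TrbE14 replicate 2. The median log2 change was 0.34 in TrbE10 and 0.55 in TrbE14 hearts. With normexp these medians were 0.19 and 0.33. None passed the test in TrbE10 hearts, where 4 were higher at an unadjusted p under 0.05 (7.8% of all genes). The 6 genes lie in 3 pairs that start beside each other on opposite strands, Col4a1 with Col4a2, Col4a3 with Col4a4 and Col4a5 with Col4a6. In RefSeq's promoter windows on GRCm38.p6 the starts of Col4a1 and Col4a2 are 21 bases apart and those of Col4a5 and Col4a6 are 1343 bases apart.

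Col4a4, a chain of the network best known from the kidney's filtration barrier, changed most clearly. Its brighter probe lies at chr1:82447879-82447938 of mm9 on the minus strand. It read 8.07, 8.01, 7.95 and 7.92 in control hearts, 8.39, 8.16, 8.32 and 8.39 in TrbE10 hearts and 8.65, 8.61, 8.61 and 8.48 in TrbE14 hearts (log2 normalized signal). The 3 groups did not overlap, with TrbE10 hearts between control and TrbE14 hearts. The log2 change was 0.60 in TrbE14 hearts (with a standard error, SE, of 0.08, fold 1.52, adjusted p = 0.00494) and 0.33 in TrbE10 hearts (SE 0.08, fold 1.26, adjusted p = 0.0621).

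The dimmer Col4a4 probe lies in the triple-helix part of the coding sequence and is shown because it reads a separate stretch of the same transcript. It matches chr1:82515563-82515622 of mm9 on the minus strand. Of the 36 collagen probes that passed the filter, 3 read at least 3 triplets in a row that begin with a glycine codon, in a reading frame free of stop codons, and they are printed here 5′ to 3′ with the glycine codons of that frame in capitals. The other 2 belong to Col14a1 (chr15:55347733-55347792, plus strand) and Col15a1 (chr4:47283786-47283845, plus strand).
Col4a4: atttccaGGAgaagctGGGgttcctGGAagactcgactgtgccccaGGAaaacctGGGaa
Col14a1: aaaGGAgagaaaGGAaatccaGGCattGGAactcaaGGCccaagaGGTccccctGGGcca
Col15a1: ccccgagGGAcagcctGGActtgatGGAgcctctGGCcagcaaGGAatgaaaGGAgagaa
The glycine codons open successive triplets, as the triple helix requires, and in the Col4a4 and Col14a1 probes the spacing is broken once.

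At this second site Col4a4 read 5.34, 5.27, 5.63 and 5.09 in control, 5.70, 5.81, 6.16 and 5.84 in TrbE10 and 6.24, 6.43, 6.45 and 5.98 in TrbE14 hearts. Both mutants again lay wholly above control, and here TrbE10 and TrbE14 hearts overlapped. The log2 change was 0.94 in TrbE14 hearts (SE 0.15, adjusted p = 0.0163) and 0.55 in TrbE10 hearts (adjusted p = 0.0942). Col4a4 was called in TrbE14 hearts under the reported setting and under all 22 alternatives, each array left out included. Among the 22, the settings on other probes of a gene and on probes measured in every group reuse the reported fit. The Col4a4 call could not be lost in those. At the brighter probe the adjusted p of limma was 0.00306 to 0.0256.

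Col4a1 and Col4a2 encode the chains that form the network found in nearly every basement membrane. Col4a1 (chr8:11199009-11199068, minus strand) read 12.30, 12.18, 12.02 and 12.10 in control, 12.35, 12.51, 12.69 and 12.41 in TrbE10 and 12.64, 12.55, 12.81 and 12.72 in TrbE14 hearts. All 8 mutants lay above all controls. The log2 change was 0.53 in TrbE14 hearts (SE 0.10, adjusted p = 0.0438) and 0.34 in TrbE10 hearts (SE 0.10, adjusted p = 0.12). The Col4a1 call lay close to the threshold: it stood in 1 of 12 fits that left out 1 array, the fit without TrbE10 replicate 3 (adjusted p = 0.0360), and with any other array left out the adjusted p was 0.0512 to 0.127 while the change stayed between 0.49 and 0.58.

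Col4a2 (chr8:11448840-11448899, plus strand) read 12.21, 12.05, 11.97 and 12.20 in control, 12.48, 12.33, 12.87 and 12.46 in TrbE10 and 12.61, 12.35, 12.96 and 12.80 in TrbE14 hearts. All 8 mutants lay above the controls here too, with log2 changes of 0.43 in TrbE10 (SE 0.15, adjusted p = 0.179) and 0.57 in TrbE14 hearts (SE 0.15, adjusted p = 0.129). Neither passed the test. Col4a3, the neighbour of Col4a4 and a chain of the same network, had changes of 0.41 (adjusted p = 0.241) and 0.58 (adjusted p = 0.165), and its TrbE14 hearts lay wholly above control.

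Col4a5 and Col4a6, the pair on the X chromosome, had the smallest changes of the class. Col4a5, whose chain joins those of Col4a3 and Col4a4 in a trimer, had a log2 change of 0.08 in TrbE10 (95% interval -0.13 to 0.29) and 0.03 in TrbE14 hearts (95% interval -0.18 to 0.24). Col4a6 had changes of 0.20 and 0.09 at its brighter probe and of -0.43 and -0.20 at its dimmer one, so its direction depended on the probe. No Col4a5 or Col4a6 value passed the test.

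**Figure D2:**
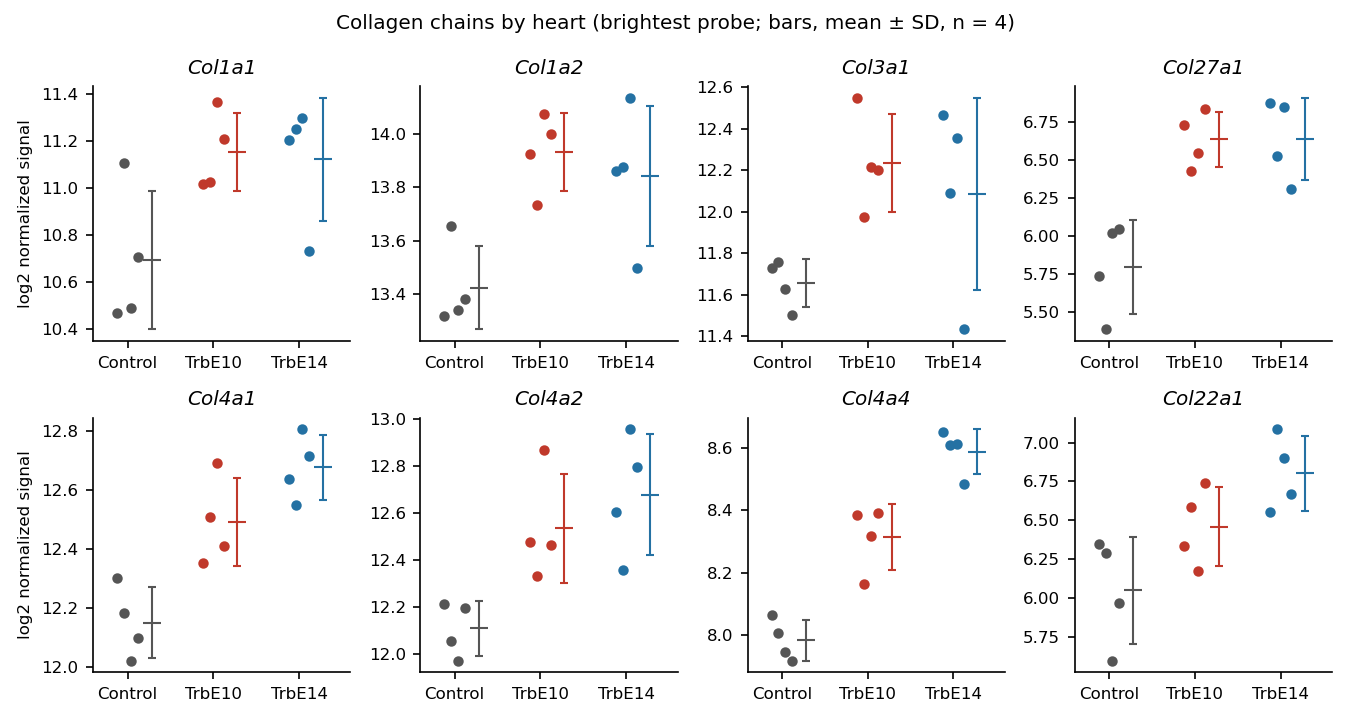
Log2 normalized signal of 8 collagen genes in each heart at the brightest probe, with a panel and a vertical scale of its own for each gene. Points are single hearts, and bars give the mean ± SD of 4 hearts. TrbE14 hearts form the highest group for Col4a4 without overlap, while 1 TrbE14 heart lies among or below the controls for Col1a1, Col1a2 and Col3a1.

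Fibrillar collagen genes read higher in both mutants but mostly missed the threshold. Of the 7 measured, 6 were higher in each mutant, the median log2 change being 0.51 in TrbE10 and 0.43 in TrbE14 hearts. Col27a1 was called higher in TrbE10 hearts (1.36% of all genes were) and none was called in TrbE14 hearts (0.583% of all genes). At an unadjusted p under 0.05, 5 were higher in TrbE10 (7.8% of all genes) and 3 in TrbE14 hearts (6.52%). Mutant hearts lay wholly above control for 4 of the 7 in TrbE10 (4.94% of all genes) and for 1 of the 7, Col27a1, in TrbE14 (4.65% of all genes). Col5a2, which passed the filter only in mutant groups, is among the 6, the 5 and the 4 and enters both medians.

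Col1a1 and Col1a2 encode the chains of type I collagen, the main fibrillar collagen of the heart. Col1a1 (chr11:94813115-94813174, plus strand) read 10.47, 11.10, 10.49 and 10.71 in control, 11.02, 11.02, 11.37 and 11.21 in TrbE10 and 11.20, 11.25, 11.30 and 10.73 in TrbE14 hearts. Control replicate 2 lay above 2 of the TrbE10 hearts, and TrbE14 replicate 4 lay within the control range. The log2 change was 0.46 in TrbE10 (SE 0.17, adjusted p = 0.206) and 0.43 in TrbE14 hearts (SE 0.17, adjusted p = 0.303).

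Col1a2 (chr6:4490619-4490678, plus strand) read 13.32, 13.65, 13.34 and 13.38 in control, 13.92, 13.73, 14.07 and 14.00 in TrbE10 and 13.86, 13.87, 14.13 and 13.498 in TrbE14 hearts. All TrbE10 hearts lay above control, and TrbE14 replicate 4 again fell within the control range. The change was 0.51 in TrbE10 (SE 0.14, adjusted p = 0.0925) and 0.42 in TrbE14 hearts (SE 0.14, adjusted p = 0.237).

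Col3a1, the chain of type III collagen of finer and more compliant fibres, lies at chr1:45405589-45405648 on the plus strand at its probe. It read 11.73, 11.76, 11.63 and 11.504 in control, 12.55, 11.97, 12.21 and 12.20 in TrbE10 and 12.47, 12.09, 12.36 and 11.43 in TrbE14 hearts. TrbE10 hearts lay wholly above control, whereas TrbE14 replicate 4 lay below every control. The change was 0.58 in TrbE10 (SE 0.20, adjusted p = 0.189) and 0.43 in TrbE14 hearts (SE 0.20, adjusted p = 0.382), and without TrbE14 replicate 4 the latter was 0.65.

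Col27a1 encodes a fibrillar collagen with a shorter triple helix, known mainly from cartilage. Its probe (chr4:62995485-62995544, plus strand) read 5.73, 5.38, 6.02 and 6.05 in control, 6.73, 6.43, 6.54 and 6.83 in TrbE10 and 6.87, 6.52, 6.85 and 6.31 in TrbE14 hearts. Both mutants lay wholly above control and overlapped each other. The log2 change was 0.84 in TrbE10 (SE 0.17, fold 1.79, adjusted p = 0.0386) and 0.84 in TrbE14 hearts (SE 0.17, fold 1.79, adjusted p = 0.0635), so that changes of like size fell on either side of the threshold. In TrbE10 hearts the call stood in 4 of 12 fits with 1 array left out and was lost without any control array, without TrbE10 replicate 1, 3 or 4 or without TrbE14 replicate 2, where the adjusted p was 0.0558 to 0.0992. With normexp background correction the change was 0.40 in TrbE10 hearts, less than in the fit above, though still called.

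The remaining fibrillar genes belong to type V, which starts and limits fibril growth. Col5a2 had a change of 1.03 in TrbE10 hearts (SE 0.23, adjusted p = 0.0501) against 0.46 in TrbE14 hearts (adjusted p = 0.400), with 2 of 4 control arrays above background. Its TrbE10 hearts read 5.20 to 6.00 against 4.36 to 4.82 in control. Col5a1 had changes of 0.12 and 0.16, and Col5a3 was the 1 fibrillar gene that read lower, by -0.38 and -0.16, none of them past the test.

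The promoters of Col1a2, Col3a1 and Col27a1 are shown for the fibrillar genes given heart by heart above that have a RefSeq window. Each line gives the 250 bases before the annotated start on GRCm38.p6, 5′ to 3′ on the gene's strand, which is plus for all, at chr6:4505368-4505617, chr1:45311288-45311537 and chr4:63215162-63215411. Capitals mark 3 short motifs on either strand, the CCAAT box, the TATA box searched as TATAAA, and the GC box that Sp1 is known to bind, searched as GGGCGG.
Col1a2: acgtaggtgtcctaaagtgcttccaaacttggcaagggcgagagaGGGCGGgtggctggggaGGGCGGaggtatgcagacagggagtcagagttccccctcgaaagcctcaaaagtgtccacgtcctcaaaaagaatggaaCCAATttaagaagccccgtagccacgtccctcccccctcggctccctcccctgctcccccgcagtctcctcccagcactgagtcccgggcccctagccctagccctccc
Col3a1: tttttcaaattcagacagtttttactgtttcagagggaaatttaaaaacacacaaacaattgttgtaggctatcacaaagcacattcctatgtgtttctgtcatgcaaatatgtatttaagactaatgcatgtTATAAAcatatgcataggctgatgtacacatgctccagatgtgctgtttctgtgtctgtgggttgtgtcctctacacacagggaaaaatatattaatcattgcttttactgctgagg
Col27a1: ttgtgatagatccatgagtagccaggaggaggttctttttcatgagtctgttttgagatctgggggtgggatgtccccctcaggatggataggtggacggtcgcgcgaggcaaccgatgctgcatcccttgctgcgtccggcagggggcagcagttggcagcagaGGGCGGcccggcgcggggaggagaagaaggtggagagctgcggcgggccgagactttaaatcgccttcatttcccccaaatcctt
Col1a2 holds the strings CCAAT and GGGCGG, Col3a1 TATAAA and Col27a1 GGGCGG, so none of these motifs is shared by all. The strings were searched at any place in the 250 bases, and their distance from the start was not weighed. RefSeq windows were found for 22 of the 27 measured genes, 24 windows in all. The GC box stood in 16 of them and in 32.7% of 32851 windows of all genes, the CCAAT box in 8 and in 33.8%, and the TATA box in 1 and in 12.4%.

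Of the 14 other collagens measured, 9 were higher in each mutant, with median log2 changes of 0.28 in TrbE10 and 0.39 in TrbE14 hearts, and only Col22a1 was called, in TrbE14. The TrbE14 median was 0.20 with normexp background correction and 0.19 from the deposited normalized table. At an unadjusted p under 0.05, 5 were higher and 1 lower in TrbE10 hearts (7.8% and 9% of all genes). In TrbE14 hearts 5 were higher and 2 lower (6.52% and 7.4% of all genes). Col8a1 and Col8a2, which passed the filter only in mutant groups, are among the 9 higher, and Col8a1 is among the 5 in each mutant.

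Col22a1, a fibril-associated collagen known from the junctions of muscle with tendon, was read by a pair of filtered probes. At the brighter one (chr15:71699345-71699404, minus strand) it read 6.34, 6.29, 5.59 and 5.97 in control, 6.33, 6.58, 6.18 and 6.74 in TrbE10 and 6.55, 7.09, 6.90 and 6.67 in TrbE14 hearts. TrbE14 hearts lay wholly above control, and TrbE10 hearts overlapped it. The change there was 0.75 in TrbE14 (SE 0.19, adjusted p = 0.119) and 0.41 in TrbE10 hearts (SE 0.19, adjusted p = 0.311).

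At the dimmer Col22a1 probe (chr15:71628906-71628965, minus strand) the values were 3.93, 4.63, 2.52 and 3.81 in control, 4.67, 5.48, 5.15 and 5.19 in TrbE10 and 5.38, 6.12, 5.66 and 5.66 in TrbE14 hearts. Only 1 of the 4 control arrays was above background here, and this probe passed the filter through the mutants. The change was 1.98 in TrbE14 hearts (SE 0.37, adjusted p = 0.0408), which made the call, and 1.40 in TrbE10 hearts (adjusted p = 0.0879). The Col22a1 call in TrbE14 hearts stood in 7 of 22 alternative settings, the reported one not counted.

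Among the other fibril-associated genes, Col14a1, which binds the surface of fibrils, had the largest change of the 27 in TrbE10 hearts at 1.17 (SE 0.47, adjusted p = 0.246), with 0.63 in TrbE14 hearts (adjusted p = 0.557). Its control hearts spread from 6.83 to 8.81, and TrbE10 hearts from 8.54 to 10.09, so the groups overlapped. Col14a1 was called in each mutant in 1 of 22 alternative settings, the fit with Y-linked transcript level as a covariate. Col16a1 had changes of 0.46 and 0.55, and its TrbE14 hearts lay wholly above control. Col9a2 had changes of 0.22 and 0.40, and Col20a1 of -0.03 and -0.41.

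The multiplexins of basement membrane zones went opposite ways. Col18a1, the source of endostatin, had changes of 0.56 (adjusted p = 0.189) and 0.58 (adjusted p = 0.254), and Col15a1 had changes of -0.25 (adjusted p = 0.569) and -0.47 (adjusted p = 0.334). The chains of type VI collagen, which forms beaded filaments around cells, were likewise not alike. Col6a1 had changes of 0.31 and 0.38, with all 8 mutant hearts above the controls, and Col6a2 had changes of 0.24 and 0.18. Col6a3 read -0.42 and -0.45, and all 4 TrbE10 hearts (9.90 to 10.06) lay below all 4 controls (10.22 to 10.63). A second Col6a2 probe had changes of 0.39 (adjusted p = 0.228) and 0.38 (adjusted p = 0.309), and no probe of type VI passed the test.

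The short-chain collagens of vessel walls, Col8a1 and Col8a2, had changes of 0.83 and 1.04 in TrbE10 and of 0.63 and 1.03 in TrbE14 hearts, none past the test. Both passed the filter only through the mutants. Col8a2 read 2.26 to 5.35 in control hearts, a range that held all TrbE14 hearts (4.8 to 5.11), and its TrbE14 change was -0.07 when computed from the deposited normalized table. The transmembrane Col23a1 had changes of -0.33 and -0.14, and Col7a1, which forms the anchoring fibrils of skin, had changes of -0.06 and -0.08.

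The mutant hearts were not alike in their collagen levels. For each heart the median log2 difference from the control mean was taken over the genes of each class, as a description. For fibrillar genes it was 0.50, 0.32, 0.65 and 0.55 in TrbE10 hearts and 0.51, 0.45, 0.60 and 0.04 in TrbE14 hearts, against -0.08 to 0.10 in control hearts. TrbE14 replicate 4 was the only mutant heart within the control range. For type IV genes it was 0.33, 0.17, 0.45 and 0.33 in TrbE10 hearts and 0.49, 0.46, 0.45 and 0.53 in TrbE14 hearts, against -0.08 to 0.09 in control hearts. All 8 mutants lay above control, and TrbE14 replicate 4, with the lowest fibrillar value among the mutants, had the highest type IV value. For other collagens it was 0.39, -0.08, 0.41 and 0.35 in TrbE10 and 0.35, 0.36, 0.55 and 0.11 in TrbE14 hearts, against -0.05 to 0.09 in control hearts. TrbE10 replicate 2 was the lowest TrbE10 heart in every class. Over all genes tested the same median lay between -0.06 and 0.01 in all 12 hearts. Quantile normalization holds that median near 0, so it cannot show whether signal shifted in general.

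**Figure D3:**
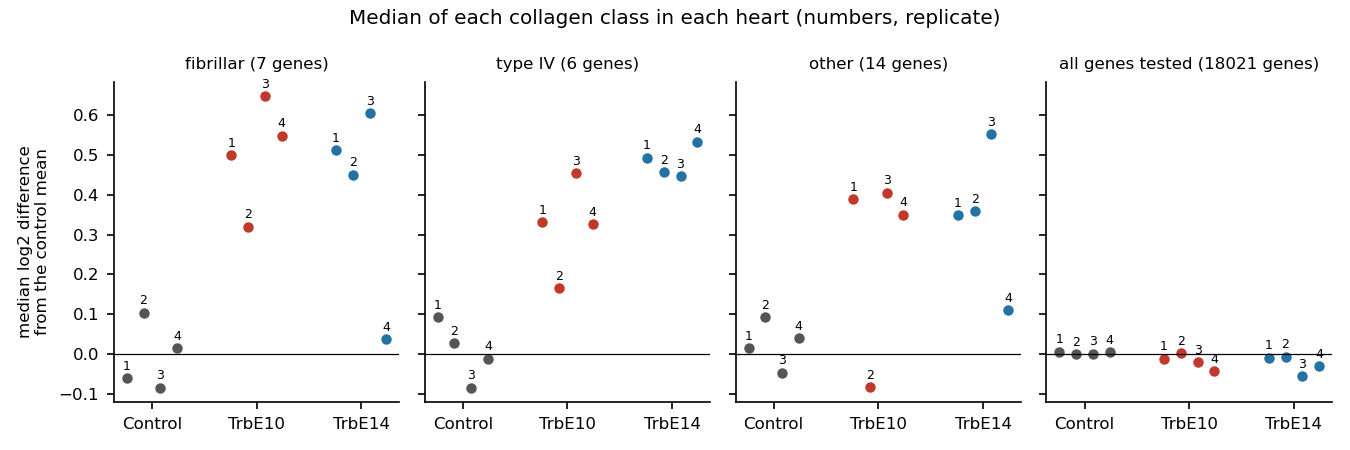
Median log2 difference from the control mean in each heart, over 7 fibrillar, 6 type IV and 14 other collagen genes and over all 18021 genes tested. Each point is a heart with its replicate number. TrbE14 replicate 4 lies at 0.04 for fibrillar genes and at 0.53 for type IV genes. All genes together stay near 0 in every heart, where quantile normalization holds them.

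Compared directly, the 2 mutants did not differ past the threshold at any collagen gene by limma, nor at any of the 24593 probes, against a background of 0% of all genes in either direction. Of the 27 genes 14 read higher in TrbE10 than in TrbE14 hearts, as did 51.2% of all genes. The median log2 difference, TrbE10 minus TrbE14, was 0.03 for fibrillar, -0.15 for type IV and 0.02 for other collagens, and 0.00461 for all genes tested. At an unadjusted p under 0.05, Col5a2 was higher in TrbE10 by 0.57 (95% interval 0.07 to 1.07, adjusted p = 0.83) and Col4a4 was lower by -0.27 (95% interval -0.45 to -0.10, adjusted p = 0.582), that is, 1 gene each way of 27 (2.92% and 3.04% of all genes). The interval of the difference was -0.34 to 0.40 for Col1a1, -0.30 to 0.60 for Col3a1 and -0.41 to 0.03 for Col4a1, so that differences of these sizes remain possible. The comparisons of each mutant with control use the same 4 control hearts.

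Enzymes and chaperones of collagen synthesis, cleavage and cross-linking were followed as a list of 30 genes, 25 of them measured. In TrbE10 hearts the list had a median log2 change of 0.21, with 2 called higher (8% of 25, against 1.36% of all genes) and none lower (0.788% of all genes). In TrbE14 hearts the median was 0.13, with 1 called higher (4%, against 0.583%) and none lower (0.178%). Loxl3, a lysyl oxidase that cross-links collagen, was called in both mutants, with changes of 1.01 (adjusted p = 0.00339) and 0.98 (adjusted p = 0.00639). Adamts2, which removes the N-propeptide of fibrillar procollagens, had a change of 0.96 in TrbE10 hearts (adjusted p = 0.0202), where it was called, and of 0.66 in TrbE14 hearts (adjusted p = 0.131). Serpinh1, the collagen chaperone, had changes of -0.38 and -0.49, and the prolyl hydroxylase chain gene P4ha1 had changes of 0.13 and -0.12, none past the test. Lox, Loxl4, P4ha3, Adamts3 and Tll2 were not measured.

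Markers of the cells that make or border collagen moved as well, and in a bulk sample more cells of a type and more RNA per cell cannot be told apart. For the counts that follow, 45.2% of all genes read higher in TrbE10 and 44.1% in TrbE14 hearts. Of all genes, 1.36% and 0.583% were called higher and 0.788% and 0.178% lower. Of 9 fibroblast markers, all measured, 7 were higher in each mutant, with medians of 0.22 and 0.34, and Dcn (decorin) was called in both. Pi16 read lower in both (-0.22 and -0.22), Ddr2 in TrbE10 (-0.01) and Lum in TrbE14 hearts (-0.14). The summed signal of the fibroblast markers was 98495 to 109785 in control, 113100 to 134486 in TrbE10 and 128726 to 146580 in TrbE14 hearts. All sums given here are on the linear scale, so the brightest genes weigh most. Among fibroblast markers these were Dcn and Gsn (control means 15.73 and 14.94 on the log2 scale). Of 6 measured markers of activated fibroblasts, 5 were higher in each mutant, with medians of 0.88 and 0.90, none was called higher and Fap was called lower in both. The summed signal of the activated fibroblast markers, of which Acta2 was the brightest (control mean 13.98), was 13384 to 26295 in control, 20663 to 47151 in TrbE10 and 22069 to 48380 in TrbE14 hearts. Of 9 endothelial markers, 8 were higher in each mutant, with 2 (Eng and Vwf) and 1 (Vwf) called, medians of 0.17 and 0.18, and summed signals of 36102 to 47468, 48606 to 56365 and 47674 to 56060 in control, TrbE10 and TrbE14 hearts. Of 7 mural markers, 4 and 6 were higher, with Pdgfrb called in TrbE10, medians of 0.15 and 0.25, and summed signals of 15381 to 16310, 16481 to 18990 and 17941 to 19326. Of 8 macrophage markers, 8 and 7 were higher, with 4 (C1qa, C1qc, Cd68 and Csf1r) and 1 (Csf1r) called, medians of 0.67 and 0.38, and summed signals of 10725 to 12959, 18610 to 23334 and 17115 to 18528. The part of these cell types in the collagen values was not tested.

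Of 7 cardiomyocyte markers, 2 and 3 were higher, none was called, and the medians were -0.04 and -0.03. Their summed signal was 837031 to 871707 in control, 883125 to 919368 in TrbE10 and 794804 to 879597 in TrbE14 hearts. Actc1 and Myh6 were the brightest of them (control means 17.97 and 17.92). Of 4 atrial muscle markers, Sln was called higher in TrbE10 by 3.80 (adjusted p = 0.0177) and had a change of 3.33 in TrbE14 (adjusted p = 0.0511). Nppa had changes of 2.07 and 1.65, neither past the test. Myl4 had changes of -0.09 and 0.09 and Myl7 of -0.12 and -0.00056, so the atrial markers did not rise as a set. The list medians were 0.99 and 0.87. None was called among 4 cartilage and valve markers (medians -0.04 and 0.73) and 2 measured mesothelial markers (1.09 and 0.91). Cthrc1 and Upk3b were not measured.

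**Figure D4:**
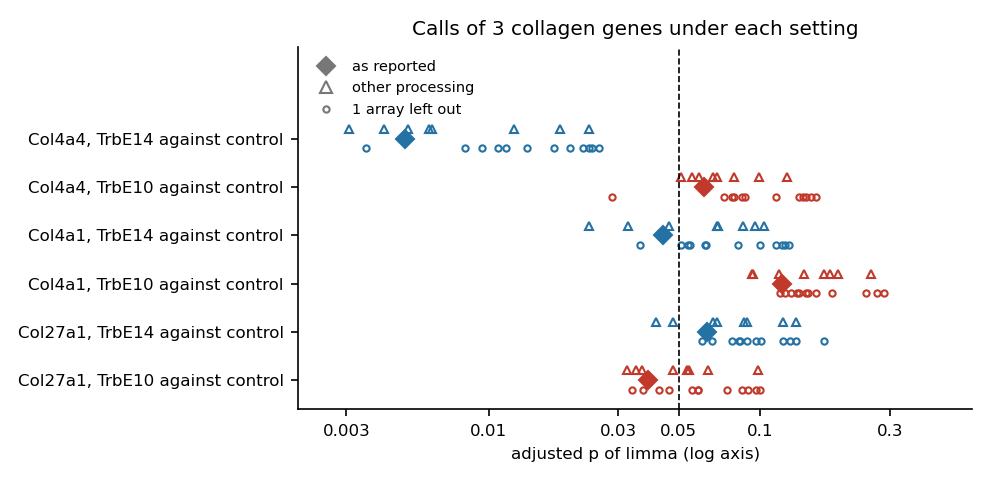
Adjusted p of limma at the brightest probe of Col4a4, Col4a1 and Col27a1 against control, on a log axis, with the threshold of 0.05 as a dashed line. Diamonds are the values reported, triangles are other processing settings and circles are fits with 1 array left out. All Col4a4 values in TrbE14 hearts lie under the threshold, while those of Col4a1 in TrbE14 and Col27a1 in TrbE10 lie on both sides of it.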

How the data were processed

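RNA from the left ventricle of 12 mice was read on Agilent arrays in a single colour, and the authors deposited, for each array, the scanner output of Agilent Feature Extraction 10.5, whose processed signal is a background-corrected intensity. The authors also deposited a log2 table of 22114 rows, quantile normalized by them and filtered at 75%, per the methods, which was used as an alternative. Here control spots were removed, outlier spots were set to missing, log2 intensities were quantile normalized and replicate spots averaged. Probes had to be well above background on 3 or more of 4 arrays in some group. limma 3.58.1 in R 4.3.3 fitted 1 model to 12 arrays with 3 contrasts, and p-values were adjusted by Benjamini-Hochberg over 24593 probes. A gene's value is that of its probe with the highest mean signal. The scripts were tested on simulated data.

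The members and lists were chosen with earlier results of these data known. Named with every array were Col1a1, Col3a1 and Col4a1, the partner chains Col1a2 and Col4a2, and every collagen gene called against control, and other members are given by their changes. Probe positions and sequences come from the array files (mm9), and promoters from RefSeq (GRCm38.p6). The alternatives tried were 75th percentile scaling, normexp background (offset 50), detection on 9 of 12 arrays, all probes unfiltered, the deposited log2 table, a replicate block, Y-linked transcript level as a covariate, fits of 2 groups, other probes of a gene, and each array left out. The number of arrays limits the precision. A further marker list is not reported here.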

Additional observations from a re-analysis of the deposited data

Results flagged for a closer look

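Dixon's criterion for a stray sample was applied to 93 groups of 4 hearts and marked 4, and chance marks about 1 in 20 such groups. The Col1a1 log2 signal of TrbE14 replicate 4 was 10.73, below the 11.20 to 11.30 of the other TrbE14 hearts. The Col4a3 log2 signal of control replicate 4 was 4.31, below the 4.75 to 4.83 of the other controls, and Col4a3 read higher in both mutants. The Col5a1 log2 signal of TrbE10 replicate 4 was 9.90, above the 9.73 to 9.75 of the other TrbE10 hearts. For the collagens that are neither fibrillar nor type IV, the median log2 difference from the control mean was -0.083 in TrbE10 replicate 2, below the 0.35 to 0.41 of the other TrbE10 hearts.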

How the results depend on the processing

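Every class median kept its direction against control in every setting tried. Of the single members, Col4a5 turned with normexp background and Col8a2 in the deposited normalized table, both in TrbE14 hearts, among the scaling and background settings. The number of collagen genes called in TrbE10 hearts, 1 as reported, was 0 with 75th percentile scaling and with no filter, 2 with the filter on 9 of 12 arrays and with the deposited normalized table, and 3 with the Y-linked covariate. Those 3 were Col5a2, Col14a1 and Col27a1. In TrbE14 hearts, 3 as reported, the number was 1 with no filter and in the fit of 2 groups, where Col4a4 was the gene called. With the Y-linked covariate it was 2, Col4a4 and Col14a1, and the calls of Col4a1 and Col22a1 were lost. With 1 array left out the number was 0 to 3 in TrbE10 hearts, 1 to 2 in TrbE14 hearts and 0 to 0 between the mutants. The type IV median in TrbE10 hearts was 0.25 with 75th percentile scaling, 0.19 with normexp and 0.24 with the deposited table, and in TrbE14 hearts it was 0.33 with normexp and 0.40 with the deposited table. The median of other collagens in TrbE14 hearts was 0.20 with normexp and 0.19 with the deposited table. The cause of these shifts was not tested.

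With 1 array left out the fibrillar median ranged from 0.46 to 0.60 in TrbE10 hearts, from 0.33 to 0.56 in TrbE14 hearts and from -0.10 to 0.09 between the mutants. The type IV median ranged from 0.30 to 0.37, from 0.48 to 0.59 and from -0.23 to -0.08, and that of other collagens from 0.22 to 0.37, from 0.28 to 0.48 and from -0.06 to 0.12. The difference between the mutants, TrbE10 minus TrbE14, turned for Col1a1 to -0.038 without TrbE10 replicate 3 and to -0.098 without TrbE14 replicate 4, and for Col3a1 to -0.069 without TrbE14 replicate 4. With 1 array left out these differences ranged from -0.098 to 0.091 for Col1a1 and from -0.069 to 0.28 for Col3a1. Col5a3 in TrbE14 hearts turned from -0.16 to 0.05 without TrbE14 replicate 4.

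Deviations of same-numbered hearts correlated between -0.19 and 0.079 for control with TrbE10 and between -0.24 and -0.035 for control with TrbE14. For TrbE10 with TrbE14 they correlated between -0.0085 and 0.48, and 3 of 4 pairs were at 0.31 or more. The labels name no litter or batch shared by number, so the reported fit was unpaired. Whether same-numbered mutants shared a factor was not tested. With the number as a block, 0 collagen genes were called between the mutants. With the replicate number as a block, 1 collagen gene was called in TrbE10 hearts, Col4a4, and 2 in TrbE14 hearts, Col4a4 (adjusted p = 0.0234) and Col22a1, while the calls of Col4a1 in TrbE14 hearts (adjusted p = 0.103) and Col27a1 in TrbE10 hearts (adjusted p = 0.0538) were lost. Counting only probes measured in every group, an alternative chosen after seeing the data, left 1 and 2 calls.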
